A study of Mus musculus with 6 samples.

Results

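The EGF receptor family and its ligands were followed in bulk RNA of mouse cochlear modiolus, the central axis around which the cochlea winds, with the spiral ganglion neurons (SGNs), the fibers of the auditory nerve and their glia. The members were 10 genes taken by symbol: the receptors Egfr, Erbb2, Erbb3 and Erbb4 and the ligands Egf, Tgfa, Areg, Btc, Nrg1 and Nrg2. Of these, 9 were matched to a row of the deposited counts, among 33676 genes in all, and Erbb3 was not analysed here. Of the 55 annotated transcripts of the 10 genes, 27 had a row, and these belonged to the 9 genes. Control libraries (n = 3) came from saline-treated mice and degenerated libraries (n = 3) from mice given 1 g/kg kanamycin sulfate and, 30 min later, 0.4 g/kg furosemide, a combination that destroys hair cells and after which SGNs degenerate. All mice were male C57BL/6 animals, 8 weeks old when used, and degenerated modioli belonged to day 30 after the injections. No source says that the libraries of a group came from separate mice, so p-values measure the spread between libraries, which may be technical. The libraries held 12480876 to 15549319 counts each.

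ErbB proteins are receptor tyrosine kinases that pair up when a ligand binds to them. EGF, TGF-alpha, amphiregulin and betacellulin bind EGFR, betacellulin also binds ERBB4, the neuregulins NRG1 and NRG2 bind ERBB3 and ERBB4, and ERBB2 has no known ligand of its own and serves as the shared partner. Bound receptors switch on the Ras-MAP kinase and PI3K-Akt pathways. In nerve, neuregulin-1 on axons signals to ERBB2 and ERBB3 on Schwann cells and controls their survival and myelination, and in the cochlea ErbB signaling is known for its part in the exchange between neurons, glia and supporting cells.

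What the ligands share is the EGF-like domain, a short stretch held together by 6 cysteines, and its coding sequence is shown for 5 ligands so that this common spacing can be seen. The cysteine codons are in capitals, the bases come from the GENCODE M21 transcripts (GRCm38), and each stretch is joined from 2 exons, so that the coordinates also span an intron. Egf is read from chr3:129686322-129690850 (minus strand), Areg from chr5:91143614-91144364 (plus strand), Btc from chr5:91362421-91366197 (minus strand), Tgfa from chr6:86263200-86269960 (plus strand) and Nrg1 from chr8:31837698-31849398 (minus strand).
Egf-201: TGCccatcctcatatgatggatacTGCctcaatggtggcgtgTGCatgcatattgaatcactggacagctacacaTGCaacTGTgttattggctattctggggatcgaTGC
Areg-201: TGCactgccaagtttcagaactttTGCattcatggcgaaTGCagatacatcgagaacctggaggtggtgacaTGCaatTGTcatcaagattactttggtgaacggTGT
Btc-201: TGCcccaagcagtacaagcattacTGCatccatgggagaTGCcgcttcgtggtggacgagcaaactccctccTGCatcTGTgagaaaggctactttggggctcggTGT
Tgfa-201: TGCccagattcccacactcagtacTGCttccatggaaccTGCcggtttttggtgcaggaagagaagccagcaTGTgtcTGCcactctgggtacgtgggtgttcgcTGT
Nrg1-203: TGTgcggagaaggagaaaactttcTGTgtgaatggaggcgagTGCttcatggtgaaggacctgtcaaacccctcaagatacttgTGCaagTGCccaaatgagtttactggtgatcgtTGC
The listed transcripts did not all hold this stretch. It was whole in Egf-201, Egf-202, Egf-207, Areg-201, Btc-204, Nrg1-203, Nrg1-216 and Nrg1-218. It was not whole in the other listed forms of these ligands, Egf-204, Egf-206 and Nrg1-208 among them. The search was for the exact bases shown, so whether Nrg1-208 holds another version of the domain was not tested. Btc-201 and Tgfa-201 were not analysed here and are shown for their sequence only.

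The modiolus label was checked against marker genes before the members were compared. Of 12 SGN markers, all had a row and none was at 0. Their summed level was 11310 to 14607 CPM (counts scaled by library size) in control and 6715 to 9970 CPM in degenerated libraries, with 10 of 12 lower and 1 called lower. Over all genes tested, 49.7% had a higher estimate, and the call rule given below called 2.73% in either direction. Hair cell markers summed to 471 to 671 CPM in control and 165 to 431 CPM in degenerated libraries, with 5 of 6 tested genes lower, 1 higher and Chrna9 at 0 in all libraries. Of these, 2 were called lower, the prestin gene Slc26a5 and oncomodulin (Ocm), both markers of outer hair cells, with log2 fold changes of -5.11 and -5.83, and Ocm alone took 140 to 173 CPM in control and 0.789 to 3.899 CPM in degenerated libraries. Summed macrophage markers (5 of 8 with a row) lay at 331 to 394 CPM in control and 466 to 613 CPM in degenerated libraries. Of the 4 tested, 3 were higher, 2 of them called, and 1 was lower. Aif1, not tested, went the other way, with 15.1, 0.0707 and 16.2 CPM in controls and at most 0.137 CPM in degenerated libraries. Cx3cr1 overlapped between the groups. Cochlear epithelium markers (8 of 10 with a row) summed to 1682 to 1918 CPM in control and 2106 to 2563 CPM in degenerated libraries, with 7 higher, 1 lower and 1 called higher. Schwann cell markers overlapped between the groups, with 5517 to 9682 CPM and 4850 to 7666 CPM. Markers of tissue around the modiolus were present as well, bone at 438 to 755 CPM and 178 to 349 CPM, and bone marrow at 311 to 13118 CPM and 646 to 4649 CPM, the latter with overlapping groups. Groups also overlapped for fibroblast (1514 to 1937 CPM and 1138 to 1567 CPM), endothelium (56.9 to 72.6 CPM and 59.9 to 70.6 CPM) and stria vascularis markers (307 to 426 CPM and 304 to 540 CPM). Skeletal muscle markers summed to 352 CPM in control 3 and to at most 5.16 CPM in each other library, with Myh2 at 0 in all. In bulk RNA, fewer cells of a type and less RNA per cell cannot be told apart, and whether these shifts take part in the results below was not tested.

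By level in the listed transcripts, the family fell into 3 tiers. Levels of different genes were compared as TPM, which divides counts by transcript length and scales them over the listed transcripts of a library. The place of a gene thus also depends on which of its forms were listed, and Egfr-201, Btc-201 and Tgfa-201 were not analysed here. Egf (26.1 ± 2.08 TPM in control, SD, n = 3) and Erbb2 (26.0 ± 1.82 TPM) stood highest and differed from each other by less than their SD. Nrg2 (7.11 ± 1.43 TPM) and Egfr (3.46 ± 1.25 TPM) followed. Nrg1 had a control mean of 6.33 TPM, which came from 14.7 TPM in control 3 and 2.42 and 1.87 TPM in controls 1 and 2. Btc (0.562 TPM), Areg (0.214 TPM), Tgfa and Erbb4 were at the bottom, and Tgfa and Erbb4 had no count in any control library. The order in degenerated libraries was again led by Egf (52.3 ± 20.0 TPM) and Erbb2 (36.9 ± 8.49 TPM), with Nrg2 at 7.19 ± 1.21 TPM and Egfr at 5.30 ± 0.86 TPM. Egfr-202 alone, the main listed Egfr form, had 3.46 TPM in control and 3.57 TPM in degenerated libraries. The rest was Egfr-205, a form of 446 bases, with 2.62 and 2.59 TPM from 9 and 8 counts in degenerated 1 and 2.

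**Figure D1:**
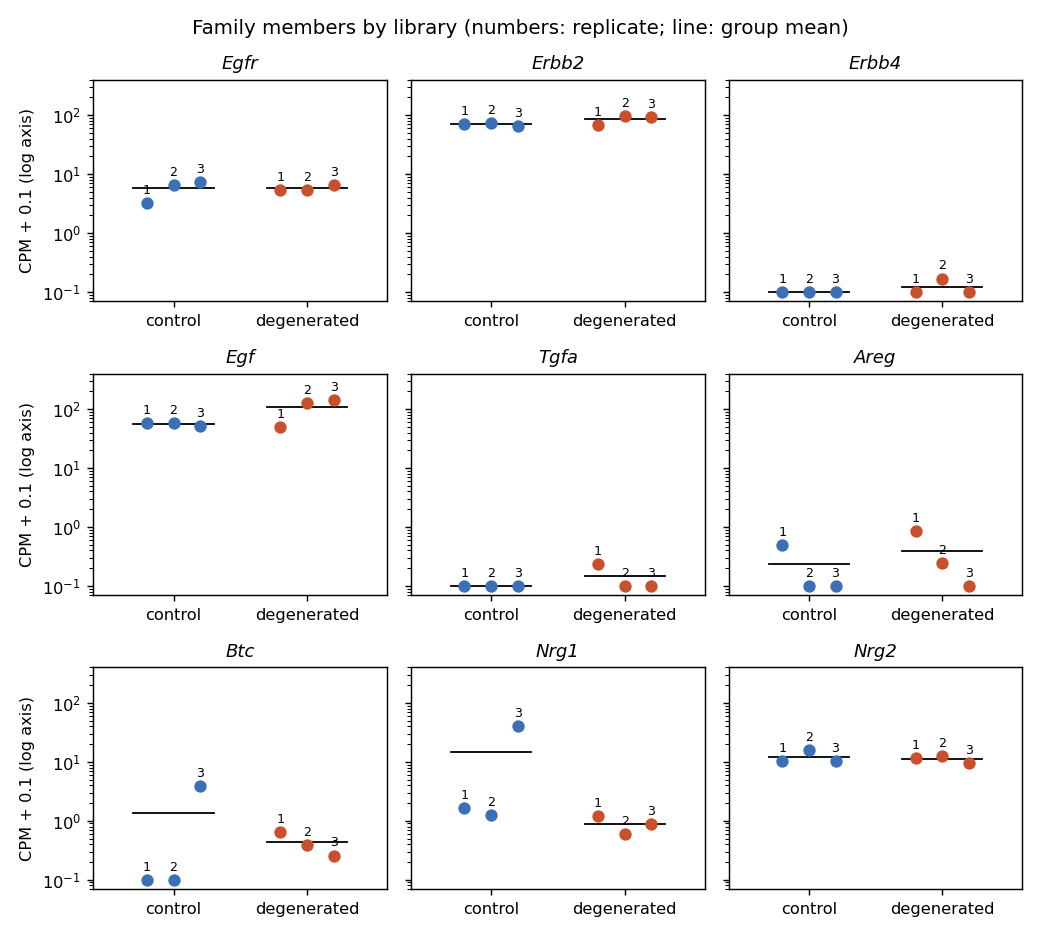
CPM plus 0.1 on a log axis for the 9 members with a row, by group, with 1 point per library, the replicate number above it and the group mean as a line. Egf is higher in degenerated 2 and 3 than in every other library, Nrg1 and Btc stand out in control 3 alone, and Erbb4, Tgfa and Areg lie near the lower end.

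No member gene was called between degenerated and control libraries. Of the 9 genes, 5 had enough counts to be tested (Egfr, Erbb2, Egf, Nrg1 and Nrg2), 3 with a higher and 2 with a lower estimate in degenerated libraries. A call required that the quasi-likelihood test of edgeR gave an unadjusted p under 0.01 and that the log2 fold change was past 0.2 in either direction. This rule called 0 of 5 members, against 2.73% of all 14118 genes tested. After Benjamini-Hochberg adjustment edgeR called 0 of the 14118 genes at 0.05 (1367, or 9.68%, had an unadjusted p under 0.05, and DESeq2 called 263 higher and 120 lower after adjustment), and the lowest adjusted p of a member was 0.481. The median log2 fold change was 0.02 over the 5 members, or -0.22 to 0.24 with 1 library left out, and -0.003 over all genes.

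Among the receptors, Erbb2, the partner receptor without a ligand, had the highest level of those measured. Its gene level was 72.0, 72.5 and 64.5 CPM in controls 1 to 3 and 67.6, 98.3 and 91.9 CPM in degenerated 1 to 3. Degenerated 2 and 3 lay above all controls, degenerated 1 lay among them, and the groups overlapped. Its log2 fold change was 0.30 (SE 0.17), with an edgeR adjusted p of 0.638.

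The gene total hid opposite estimates in the 2 listed transcripts of Erbb2. Erbb2-201 encodes the full receptor of 1256 codons in 27 exons, and Erbb2-202, annotated as a processed transcript without a reading frame, keeps the 81-base intron between exons 17 and 18. The intron with 30 exon bases on each side is shown because it is what sets Erbb2-202 apart within the gene body. It is read from chr11:98433020-98433160 (plus strand), with the intron in capitals.
Erbb2-202: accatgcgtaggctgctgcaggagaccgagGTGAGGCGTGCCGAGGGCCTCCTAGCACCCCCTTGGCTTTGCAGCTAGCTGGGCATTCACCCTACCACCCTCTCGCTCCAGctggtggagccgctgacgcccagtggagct
The intron follows codon 696 of Erbb2-201, 65.4% of its bases are G or C, and the receptor's reading frame carried into it meets a stop after 15 codons. Erbb2-201 has 662 bases of its own, 23 at the 5′ end and 639 at the 3′ end, and the remaining sequence is common to both, so the split of counts rests on these bases and the intron.

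Erbb2-201 had 1087, 1015 and 390 counts in controls 1 to 3 and 410, 345 and 427 counts in degenerated 1 to 3. Erbb2-202 had 0, 10 and 621 counts in the controls and 578, 1050 and 738 counts in the degenerated libraries. Controls 1 and 2 thus held almost only Erbb2-201, while control 3 looked like the degenerated libraries. As a share of Erbb2 counts, Erbb2-202 was 0% in control 1, where a count of 0 allows up to 0.276%, 0.976% in control 2 (95% Wilson interval 0.531% to 1.79%) and 61.4% in control 3 (58.4% to 64.4%). In degenerated libraries the share was 58.5% (55.4% to 61.5%), 75.3% (72.9% to 77.5%) and 63.3% (60.5% to 66.1%), so that the groups overlapped only through control 3. Intervals and limits cover counting error only. The share was 20.8% ± 35.2 in control and 65.7% ± 8.63 in degenerated libraries (SD, n = 3), with a two-sided exact permutation p of 0.2, where 0.1 is the smallest this design allows.

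Neither Erbb2 transcript was called with all libraries. Estimates on the log2 scale were -1.02 (SE 0.45) for Erbb2-201 and 2.06 (SE 1.98) for Erbb2-202, with edgeR adjusted p of 0.684 and 0.865. Control 3 decided these values. Without it, the log2 fold changes were -1.38 for Erbb2-201 and 7.27 for Erbb2-202, and both were called (unadjusted edgeR p 0.00206 and 0.00759, adjusted p 0.410 and 0.648), in a fit that called 1.46% of transcripts. The estimate for Erbb2-202 was also 5.61 with limma-voom, without a call.

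**Figure D2:**
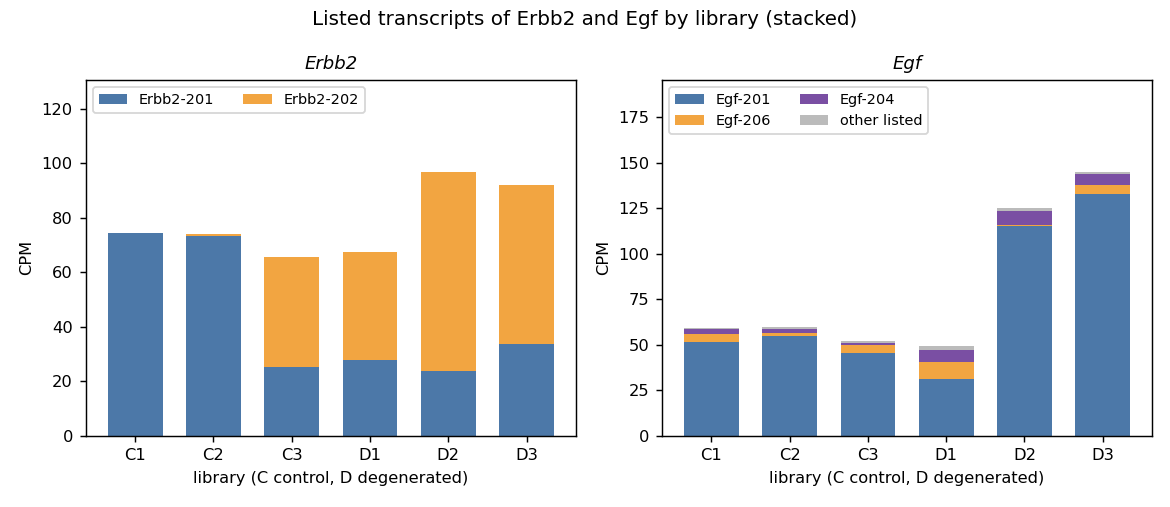
Stacked CPM of the listed transcripts of Erbb2 (left) and Egf (right) in each library, C for control and D for degenerated, on linear axes from 0. Erbb2-202 makes up more than its partner in control 3 and in all 3 degenerated libraries and is nearly absent from controls 1 and 2, and Egf-201 makes up most of Egf in every library.

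Egfr, the receptor for EGF and TGF-alpha, was low in its listed transcripts and did not differ between the groups beyond their spread. It had 3.11, 6.51 and 7.34 CPM in controls 1 to 3 and 5.34, 5.35 and 6.47 CPM in degenerated 1 to 3. The degenerated libraries lay within the range of the controls, of which control 1 was lowest. On the log2 scale the difference was 0.02 (SE 0.40, edgeR adjusted p 0.992). It became -0.28 without control 1 and -0.08 without degenerated 3, so that its sign was not stable.

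Nearly all Egfr counts fell on Egfr-202, a short form of 655 codons in 16 exons, where the full receptor Egfr-201, not analysed here, has 1210 codons in 28 exons. Egfr-202 ends on 40 coding bases that Egfr-201 lacks, followed by a TAA stop codon. These bases are shown in capitals after the last 30 shared bases, since they mark the form that was counted, and they lie at chr11:16887156-16887225 (plus strand).
Egfr-202: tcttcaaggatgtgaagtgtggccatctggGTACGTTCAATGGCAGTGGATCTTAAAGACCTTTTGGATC
Egfr-202 had 47, 92 and 115 counts in controls and 69, 68 and 82 counts in degenerated libraries, with overlapping groups. Its log2 fold change was -0.12 (SE 0.43, edgeR adjusted p 0.971). The other listed form, Egfr-205, had 9 and 8 counts in degenerated 1 and 2 and 0 in the other libraries. The counts do not tell the truncated from the full receptor, since the full form was not analysed here.

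Erbb4, a neuregulin receptor, had 1 count in all 6 libraries together, in degenerated 2, and was below the limit for testing. That count belonged to Erbb4-205, the listed form among 5 annotated ones. A level of Erbb4 was therefore not detectable in the transcripts counted here.

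Egf was the ligand with the highest level in the listed transcripts and had the largest positive estimate among the tested members. It had 57.3, 58.6 and 51.2 CPM in controls 1 to 3 and 49.3, 127 and 145 CPM in degenerated 1 to 3. Degenerated 2 and 3 lay more than 2-fold above every control, and degenerated 1 lay below every control. In TPM, where counts are divided by transcript length, degenerated 1 had 29.6 TPM against 28.4, 25.3 and 24.5 TPM in the controls and 60.3 and 67.1 TPM in degenerated 2 and 3, so that its place relative to the controls depends on the scale. The log2 fold change was 0.94 (SE 0.39, edgeR adjusted p 0.529), and Egf was not called. Without degenerated 1 it was 1.27 (SE 0.15, unadjusted p 0.000368, adjusted p 0.220), and Egf was called in a fit that called 1.93% of genes. Over all alternatives tried, the estimate ranged from 0.66 to 1.27. Summed cochlear epithelium markers were also lowest of the degenerated libraries in degenerated 1, with 2106 CPM against 2495 and 2563 CPM, and their part in the Egf value was not tested.

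Most Egf counts lay on the main coding form, which followed the gene total. Egf-201, the precursor of 1217 codons in 24 exons, had 750, 756 and 701 counts in controls and 459, 1658 and 1681 counts in degenerated libraries. It took 86.7% to 91.3% of Egf counts in controls, 92.1% and 91.6% in degenerated 2 and 3, and 63.7% in degenerated 1 (95% Wilson interval 60.1% to 67.1%). Degenerated 1 was thus lowest both in the count and in the share of this form. Its log2 fold change was 0.88 (SE 0.53, edgeR adjusted p 0.768). Without degenerated 1 it was called, in a fit that called 1.53% of transcripts.

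Egf-204 was the member transcript called with all libraries, and it was higher in the degenerated ones. It had 40, 28 and 19 counts in controls 1 to 3 and 97, 109 and 76 counts in degenerated 1 to 3. Every degenerated library, degenerated 1 included, lay above every control, as was the case for 16.4% of all transcripts in either direction. The log2 fold change was 1.75 (SE 0.41, unadjusted edgeR p 0.00582, adjusted p 0.515), so it did not pass the adjusted threshold. It was 1 call among the 9 member transcripts tested, against 1.79% of all 26065 transcripts. Leaving out control 1 kept the call and leaving out any other single library ended it, with p up to 0.0212 and estimates from 1.49 to 2.05. DESeq2 gave an adjusted p of 0.00383, while the adjusted p in the other settings lay between 0.397 and 0.834.

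Egf-204 is annotated as a target of nonsense-mediated decay, with 254 codons in 11 exons. Of its bases, 1361 are shared with Egf-201 and 3028 are not, and 2995 of the latter form the 3′ end, at chr3:129699461-129702455 (minus strand). It does not hold the whole EGF-like domain shown above, so that its counts do not stand for the mature ligand. Egf-204 made up 2.37% to 4.62% of Egf counts in controls and 4.14% to 13.5% in degenerated libraries, with a two-sided exact permutation p of 0.2.

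The smaller Egf forms had higher summed counts in the degenerated group, without a call and with wide spread between libraries. Egf-206, a retained-intron form, had 68, 26 and 70 counts in controls and 138, 9 and 61 counts in degenerated libraries. Degenerated 1 was highest and degenerated 2 lowest, so that the degenerated libraries spanned the controls. Its log2 fold change was 0.42 (SE 0.94), and its sign turned without degenerated 1. Egf-203, another retained-intron form, had 5 to 17 counts in controls and 8 to 19 counts in degenerated libraries, with a log2 fold change of 0.49 (SE 0.63). Egf-202, a shorter coding form, had 14 counts in degenerated 1 and 0 elsewhere, and Egf-207, a retained-intron form, had 5 counts in control and 11 in degenerated libraries.

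Nrg1, which encodes the axonal signal to Schwann cells, had the largest absolute estimate in the family, and it came from 1 library. It had 1.52, 1.13 and 41.0 CPM in controls 1 to 3 and 1.09, 0.493 and 0.789 CPM in degenerated 1 to 3. The groups did not overlap, as in 17.7% of all genes tested, but controls 1 and 2 were close to degenerated 1, and control 2 and degenerated 1 both had 16 counts. The log2 fold change was -4.18 (SE 1.57, edgeR adjusted p 0.481). Without control 3 it was -0.75 (unadjusted p 0.230, adjusted p 0.830). Nrg1 was not called in either fit, and DESeq2 gave it no p because of an outlying count.

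By transcript, the excess in control 3 was Nrg1-203, a coding form that holds the whole EGF-like domain, with 620 counts in control 3 and 0 in each of the other 5 libraries. Such a pattern was not limited to Nrg1. Of all listed transcripts, 291 (0.446%) had at least 100 counts in 1 library and fewer than 10 in each other one, and 53 of these were in control 3, within the range of 39 to 60 over the 6 libraries. Control 3 was also the library with skeletal muscle markers, at 352 CPM, whose part in the Nrg1 value was not tested. The remaining counts were spread over minor forms. Nrg1-208, tested on its own, had 12, 12 and 5 counts in controls and 7, 0 and 9 counts in degenerated libraries, with a log2 fold change of -0.76 (SE 1.10), and Nrg1-207, a retained-intron form, had 10, 3 and 4 counts and 9, 6 and 1 counts.

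Nrg2, a second neuregulin, had similar levels in both groups. It had 10.3, 15.5 and 10.1 CPM in controls 1 to 3 and 11.6, 12.5 and 9.31 CPM in degenerated 1 to 3. Control 2 was highest and degenerated 3 lowest, and the groups overlapped. The log2 fold change was -0.11 (SE 0.29, edgeR adjusted p 0.927). All its counts fell on Nrg2-203.

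In the transcripts counted here, the remaining ligands of EGFR were near or below the limit of detection and were not tested. The forms Btc-201 and Tgfa-201 were not analysed here, so that these counts do not give the full level of Btc or Tgfa. Areg, amphiregulin, had 6, 0 and 0 counts in controls and 11, 2 and 0 counts in degenerated libraries. Btc, betacellulin, had 0, 0 and 59 counts in controls and 8, 4 and 2 counts in degenerated libraries, all on the retained-intron form Btc-204. Control 3 was again the library that stood out, and all 3 degenerated libraries held counts of Btc where controls 1 and 2 held 0. Tgfa had 2 counts, both in degenerated 1. Among the other ErbB ligands, epiregulin (Ereg) had 2 counts in control and 6 in degenerated libraries, and Nrg4 had 3.77, 2.76 and 3.51 CPM against 2.05, 2.47 and 2.21 CPM. Nrg4 was thus lower in each degenerated library than in every control, a separation that 17.7% of all genes tested showed in either direction. Its log2 fold change was -0.58 (SE 0.30, edgeR adjusted p 0.603), and it was not called. Hbegf, Epgn and Nrg3 were not analysed here.

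**Figure D3:**
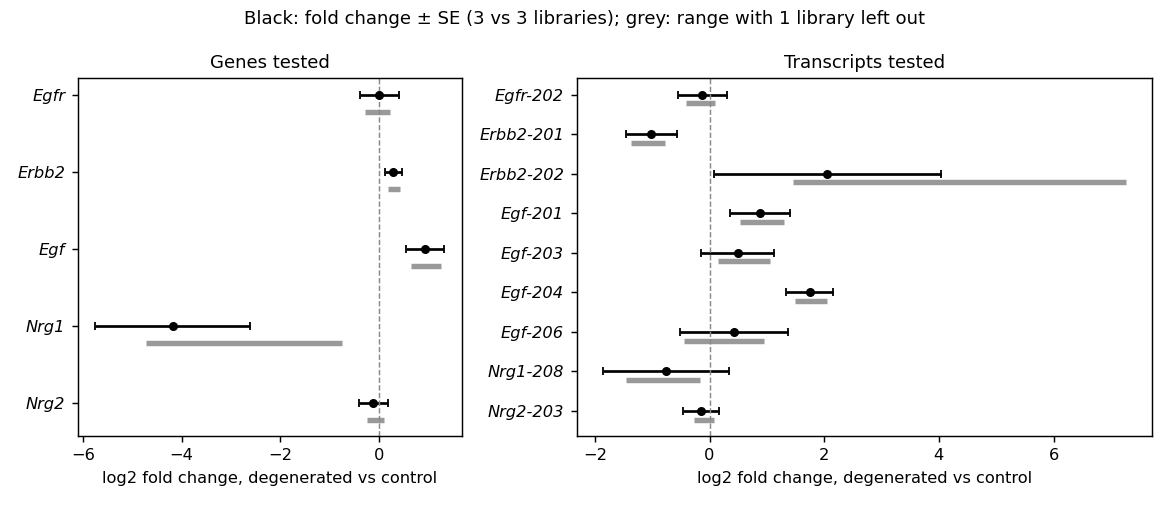
Log2 fold changes of degenerated against control libraries for the 5 tested genes (left) and 9 tested transcripts (right), with SE as black bars (3 against 3 libraries) and, in grey, the range when 1 library at a time is left out. Egf-204 stays between 1.49 and 2.05, while the ranges of Nrg1 and Erbb2-202 are the widest.

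The rest of the pathway was described over 7 lists of 92 genes that release ligands, restrain or bind receptors or carry the signal, of which 75 were tested. In degenerated libraries 53 had a higher and 22 a lower estimate (70.7% higher, against 49.7% of all genes). The lists were chosen with earlier results of these data known, and how far this shaped the share was not tested. The call rule was met by 3 genes, all higher, which is 4.0% of the 75 against 2.73% of all genes, and edgeR passed 0 of these genes at an adjusted p of 0.05, with 11 of 75 at an unadjusted p under 0.05, where all genes had 9.68%. Some members of these lists act in many other pathways, so that the lists are not specific to ErbB receptors.

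For genes induced by MAP kinase signaling the median was 0.53 on the log2 scale, 14 of 15 tested genes were higher and 2 were called. Over all genes tested, 49.7% were higher and 2.73% were called. Egr1, also on this list, had 0 counts in all 6 libraries and was not tested. Dusp5, a nuclear phosphatase that switches off ERK, had 15.95, 20.2 and 16.8 CPM in controls and 27.9, 32.6 and 38.0 CPM in degenerated libraries (log2 fold change 0.90, SE 0.21, edgeR adjusted p 0.333). Etv5, a transcription factor of the ETS family, had 37.9, 36.8 and 29.7 CPM and 52.3, 62.0 and 53.9 CPM (log2 fold change 0.69, SE 0.17, edgeR adjusted p 0.342). In both genes every degenerated library lay above every control, a separation that 17.7% of all genes tested showed in either direction. The call of Etv5 was lost when any library was left out, and that of Dusp5 was lost in 4 of 6 such fits, each with the estimate still positive. The replicate block also ended both calls, with unadjusted edgeR p of 0.0156 for Dusp5 and 0.0167 for Etv5.

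The list of receptor inhibitors and turnover factors, with 9 genes tested, had a median of 0.73, with 7 higher and 1 called. The called gene was Erbin, with 64.3, 41.2 and 42.8 CPM in controls and 94.7, 96.8 and 87.3 CPM in degenerated libraries. Erbin is a scaffold protein that binds ERBB2, so its call does not stand for restraint of the receptor, which was not tested. All degenerated libraries lay above all controls, where 17.7% of all genes tested did not overlap between groups, and the log2 fold change was 0.91 (SE 0.21, edgeR adjusted p 0.319). The call was lost in 5 of 6 fits with a library left out. The list's median fell to 0.37 without degenerated 1.

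Adaptors had a median of 0.38, with 11 of 13 genes higher and 0 called. The smallest p was that of Nck2, an SH2-SH3 adaptor at under 1 CPM in every library, with a log2 fold change of 2.77 (SE 0.85, edgeR adjusted p 0.409). Ligand processing genes had a median of 0.23, which lay between -0.10 (without degenerated 2) and 0.21 with 1 library left out, with 5 of 9 higher and 0 called, and the smallest p was that of Rhbdf1, an inactive rhomboid that regulates ligand shedding (0.77, SE 0.24, adjusted p 0.417). PI3K and Akt genes had a median of 0.17, which was 0.04 without degenerated 2 and 0.05 without control 3, with 10 of 14 higher and 0 called, led by Gsk3b, a kinase that Akt inhibits (0.67, SE 0.43, adjusted p 0.668). Ras and MAP kinase genes had a median of -0.07, with 6 of 14 higher and 0 called, and Map2k7, a kinase that activates JNK, had the smallest p (1.15, SE 0.36, adjusted p 0.417). The target genes and the kinases that act on them thus had medians of 0.53 and -0.07, a difference that was not tested. The target median fell to 0.34 without degenerated 2, and that of the kinases lay between -0.15 (without control 3) and 0.04 (without control 2).

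**Figure D4:**
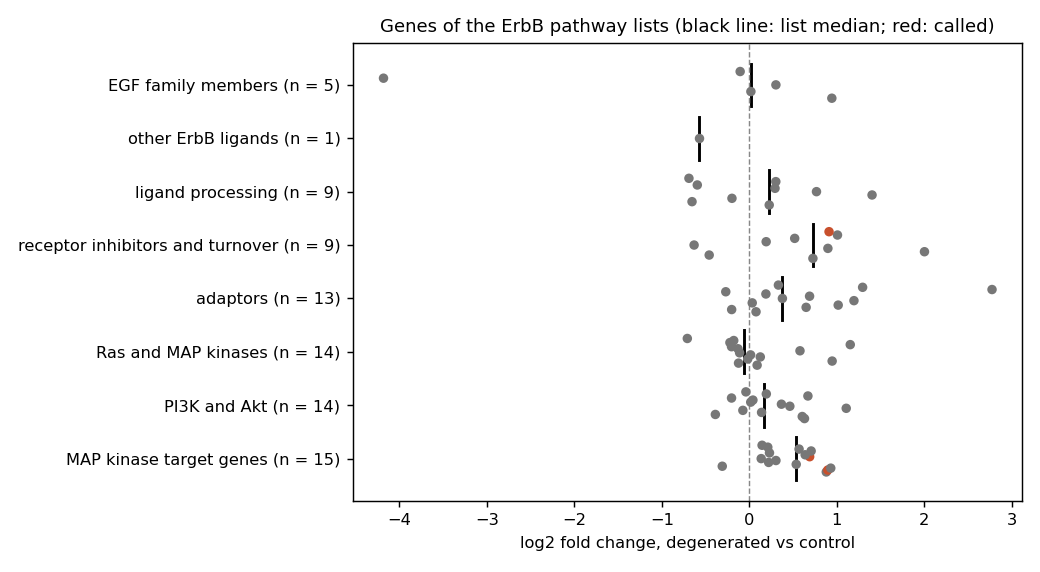
Log2 fold changes of degenerated against control libraries for every tested gene of the family and of the 7 pathway lists, with 1 point per gene, the list median as a black line and called genes in red. The target genes of MAP kinases lie to the right of 0 in 14 of 15 cases, and the family itself is centred at 0.02 with Nrg1 far to the left.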

How the data were processed

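The table deposited by the authors holds raw counts per Ensembl transcript for 3 control and 3 degenerated libraries, without normalization. The study names Hisat2 and StringTie; per the labels, the submitters' processing notes name Bowtie 0.12.2 and the builds mm8 and mm10. Of 65535 rows, 65272 matched GENCODE M21 (GRCm38), which is 46.0% of its transcripts; the other 263, with 0.125% of counts, were left out. Counts of the listed transcripts were summed per gene, so unlisted transcripts add nothing to a gene.

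Genes and transcripts were tested on all 6 libraries without covariates by the robust quasi-likelihood F test of edgeR 4.0.16 (R 4.3.3), after filterByExpr and TMM, and p-values were adjusted by Benjamini-Hochberg over all features tested. CPM use the TMM factors; fold changes are degenerated against control, and their SE is the size over the root of F. A call is an unadjusted p under 0.01 with a log2 fold change past 0.2, criteria the study states for another of its comparisons. Shares have 95% Wilson intervals; a count of 0 allows up to 3 counts; TPM were computed over the listed transcripts. Scipy 1.17.1 gave exact permutation tests.

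Alternatives were DESeq2 1.42.0, limma-voom (3.58.1), RLE factors, no filter, a mean count of at least 10, a block by replicate number, and leaving out 1 library at a time. Named genes are all members, their transcripts, the other ErbB ligands and, per pathway list, each gene called or, with none, the smallest p, and also Egr1. Markers are given as summed lists, with the genes at 0 in all libraries and, for hair cells and macrophages, the first 2 genes of the list with a row. The members and lists were chosen with earlier results of these data known. The main fit has no block by replicate number, since no source says that same-numbered libraries are pairs.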

Additional observations from a re-analysis of the deposited data

How the results depend on the processing

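Of the 5 tested members, Egf, Erbb2 and Nrg1 kept the sign of their estimates under every alternative in which they were estimated. With DESeq2, 785 genes, 1212 transcripts and 7 pathway genes were called, against 385, 466 and 3, and with the replicate block 218 genes, 221 transcripts, 0 member transcripts and 1 pathway gene. The block left Egf-204 at 1.81 with a p of 0.0149 in edgeR's test, and the cause was not tested. Deviations from the group means of same-numbered libraries correlated at 0.143, -0.0856 and 0.0656 over genes. Of the controls, 2 of 3 correlated best with their own number over genes and 1 of 3 over transcripts. This does not settle whether the numbers are pairs, and they were not taken as pairs because no source says that they are. Leaving out 1 library gave 258 to 497 gene calls, 411 to 642 transcript calls, 0 to 1 member genes (Egf, without degenerated 1), 0 to 2 member transcripts (both of Erbb2, without control 3) and 0 to 3 pathway genes (0 without control 3 and without degenerated 2). Signs turned for Egfr (-0.28 without control 1, -0.08 without degenerated 3, up to 0.24), Nrg2 (0.12 without control 2, 0.01 without degenerated 3, down to -0.23), Egfr-202 (0.10 without control 3, down to -0.41), Nrg2-203 (0.072 without control 2, down to -0.26) and Egf-206 (-0.16 with limma-voom, -0.10 with the block, -0.45 without degenerated 1, up to 0.95). Dividing by the longest listed transcript gave control levels of 23.6 TPM for Egf and 28.0 TPM for Erbb2, so that their order depends on this choice. Groups of 3, the unlisted transcripts and few counts limit what could be detected for Areg, Btc, Tgfa and Erbb4.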
